A study of Mus musculus with 6 samples.

Results

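Blood vessels of the 3 prostate lobes were followed through 10 genes, listed in the expression table as PECAM1, CDH5, KDR, FLT1, TEK, TIE1, ENG, VWF, VEGFA and EMCN. They were taken by symbol as endothelial identity and vessel growth genes, by a rule that uses no measured level although the set was proposed with earlier results of these data known, and are 10 of 24908 genes in the table. All 10 had a mean of at least 1 FPKM (fragments scaled to transcript length and to the number of mapped reads) over the 6 libraries, as did 12361 genes in all. The libraries were poly(A) RNA from the anterior (AP), dorsolateral (DLP) and ventral (VP) prostate of FVB males at 12 weeks of age, on a purified diet. The MYC group was heterozygous for the Hi-MYC transgene, a human c-MYC placed under the probasin-derived ARR2Pb promoter that is active in prostate epithelium, so endothelial cells were not its intended site. The WT group was a littermate without the transgene. Each lobe of each genotype gave 1 library, and the sample titles carry 1 animal identifier for each genotype, so the 3 libraries of a genotype came from the same mouse and genotype and mouse cannot be told apart. RNA came from enzymatically dissociated cells, so the levels describe the cells that survived dissociation.

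Endothelial cells line the inside of vessels and hold together through a junction built on VE-cadherin. Their growth is driven by VEGF-A, which neighbouring epithelial, stromal and immune cells secrete and which endothelial cells read through the receptor tyrosine kinases VEGFR2 and VEGFR1. The angiopoietin receptor TIE2 and its partner TIE1 act on vessel stability, and endoglin serves signals of the TGF-beta and BMP family. VEGFA is thus a ligand made mostly by other cells, whereas the other 9 genes are used mainly by endothelium. In bulk RNA, fewer endothelial cells and less of these transcripts in each endothelial cell cannot be told apart.

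Depth, estimated from the spacing of the lowest FPKM values, ran from 25.5 M reads in WT AP to 50.2 M in MYC AP. Myc itself, counted on the mouse gene to which human transgene reads can map in part, stood at 230, 201 and 226 FPKM in WT AP, DLP and VP and at 231, 586 and 1696 FPKM in the MYC lobes. The library labelled MYC AP therefore did not differ from WT AP in Myc. The study describes AP as largely spared by MYC overexpression, with the transgene expressed mostly in VP. It also held 522 FPKM of 7 seminal vesicle genes in sum, against 0.112 in WT AP, 9.17 in MYC DLP and 0 in both VP libraries. The part of that tissue in the AP values was not tested.

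The 9 genes used by endothelium had 1 pattern in both mice. They were highest in AP, somewhat lower in DLP and 4.49- to 9.05-fold lower in VP than in AP in the WT mouse, and 5.19- to 9.02-fold lower in the MYC mouse (ratios of FPKM). VEGFA stood apart from them, level over the WT lobes and highest in MYC DLP.

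The stretches upstream of 3 of these genes are shown because TIE1 and ENG, with the largest and the smallest ratio of AP to VP in WT among the 9, were both low in VP while VEGFA was not. RefSeq's table for build GRCm38.p6 had an entry for 7 of the 10 genes, Emcn, Kdr, Flt1, Tek, Tie1, Eng and Vegfa (Vegfa with 2 entries). Each stretch is the 250 bases before the transcription start, written in the direction of the gene, at chr4:118489850-118490099 on the minus strand for Tie1, chr2:32646345-32646594 on the plus strand for Eng and chr17:46032378-46032627 on the minus strand for Vegfa. Capitals mark GGAA on either strand (GGAA or TTCC), the core that ETS factors such as ERG and FLI1 recognise.
Tie1: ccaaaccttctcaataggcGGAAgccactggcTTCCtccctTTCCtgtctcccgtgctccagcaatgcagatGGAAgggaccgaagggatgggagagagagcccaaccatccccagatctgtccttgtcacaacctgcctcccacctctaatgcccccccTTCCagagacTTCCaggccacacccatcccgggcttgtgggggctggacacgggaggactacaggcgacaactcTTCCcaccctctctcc
Eng: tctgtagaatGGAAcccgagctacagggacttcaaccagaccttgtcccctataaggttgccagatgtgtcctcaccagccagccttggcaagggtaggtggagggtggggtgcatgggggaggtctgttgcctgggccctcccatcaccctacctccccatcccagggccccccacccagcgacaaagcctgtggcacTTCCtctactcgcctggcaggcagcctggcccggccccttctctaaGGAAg
Vegfa: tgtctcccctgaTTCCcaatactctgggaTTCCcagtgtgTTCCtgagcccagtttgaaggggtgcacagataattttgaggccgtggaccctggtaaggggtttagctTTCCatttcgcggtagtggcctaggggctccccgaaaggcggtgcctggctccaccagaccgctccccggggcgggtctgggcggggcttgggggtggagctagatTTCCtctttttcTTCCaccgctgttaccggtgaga

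The Tie1 stretch held 7 such cores, a number reached by 3.82% of 32851 promoter stretches of the same length, of which 93.5% held at least 1. The Eng stretch held 3, a number reached by 54.7% of promoters, and the Vegfa stretch held 6, reached by 8.69%. Emcn, Kdr and Flt1 held 4 each, Tek 2, and the other Vegfa entry 2. The number of cores thus did not separate Vegfa from the genes that were low in VP. The E-box CACGTG, the letters MYC with MAX prefers, which read the same on both strands, was in none of the 8 stretches and in 6.02% of all promoters. These are matches of letters in 1 window, not bound sites.

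PECAM1 (chr11:106654213-106715281 on GRCm38, the build named for the files) encodes CD31, an adhesion molecule of the endothelial border that leukocytes and platelets carry too. Its levels were 56.5, 37.4 and 6.25 FPKM in WT AP, DLP and VP and 56.6, 50.1 and 8.34 FPKM in the MYC lobes. It was the highest of the 9 in AP and DLP of both mice, and in WT VP it ranked below EMCN, CDH5 and ENG. CDH5 (chr8:104101613-104144504) encodes VE-cadherin, the adhesion molecule of the endothelial junction. Its levels were 30.7, 26.6 and 6.46 FPKM in the WT lobes and 35.3, 27.3 and 6.80 FPKM in the MYC lobes. EMCN (chr3:137341062-137431069) encodes endomucin, a sialomucin of capillary and venous endothelium, and stood at 32.7, 28.0 and 7.17 FPKM in WT and at 39.7, 28.2 and 6.73 FPKM in MYC. CDH5 and EMCN kept nearly the same level as each other in every library, with 0.990 to 1.12 FPKM of EMCN per FPKM of CDH5.

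KDR (chr5:75932827-75979072) encodes VEGFR2, the main signalling receptor for VEGF-A. Its levels were 16.1, 12.0 and 2.40 FPKM in WT AP, DLP and VP and 16.7, 8.68 and 2.10 FPKM in MYC. FLT1 (chr5:147561604-147726438) encodes VEGFR1, which binds VEGF-A tightly, signals weakly and in a soluble form acts as a decoy; the table does not separate the forms. FLT1 stood at 22.1, 14.3 and 3.04 FPKM in WT and at 24.0, 17.1 and 3.52 FPKM in MYC, above KDR in all 6 libraries. TEK (chr4:94739086-94874976) encodes TIE2, the angiopoietin receptor, and had 7.03, 4.48 and 1.45 FPKM in WT and 7.58, 4.39 and 0.840 FPKM in MYC. TIE1 (chr4:118471191-118489849), whose product pairs with TIE2, had 11.1, 7.71 and 1.23 FPKM in WT and 10.5, 9.12 and 1.42 FPKM in MYC. Of the pair, TIE1 was the higher in every library but WT VP.

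ENG (chr2:32646595-32682669) encodes endoglin, a co-receptor for the TGF-beta and BMP family on dividing endothelium. It stood at 28.7, 22.5 and 6.40 FPKM in WT and at 28.0, 20.7 and 5.15 FPKM in MYC. VWF (chr6:125552948-125686679) encodes von Willebrand factor, which endothelial cells and platelets store and release. It had 6.04, 4.91 and 0.792 FPKM in WT, the lowest of the 9 in AP and VP, and 7.78, 7.07 and 1.16 FPKM in MYC. VEGFA (chr17:46016993-46032377) had 56.6, 49.5 and 53.6 FPKM in the WT lobes and 52.4, 103 and 75.1 FPKM in the MYC lobes. The lowest and highest WT lobes of VEGFA were thus 1.14-fold apart, where those of the other 9 were 4.49-fold or more apart.

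**Figure D1:**
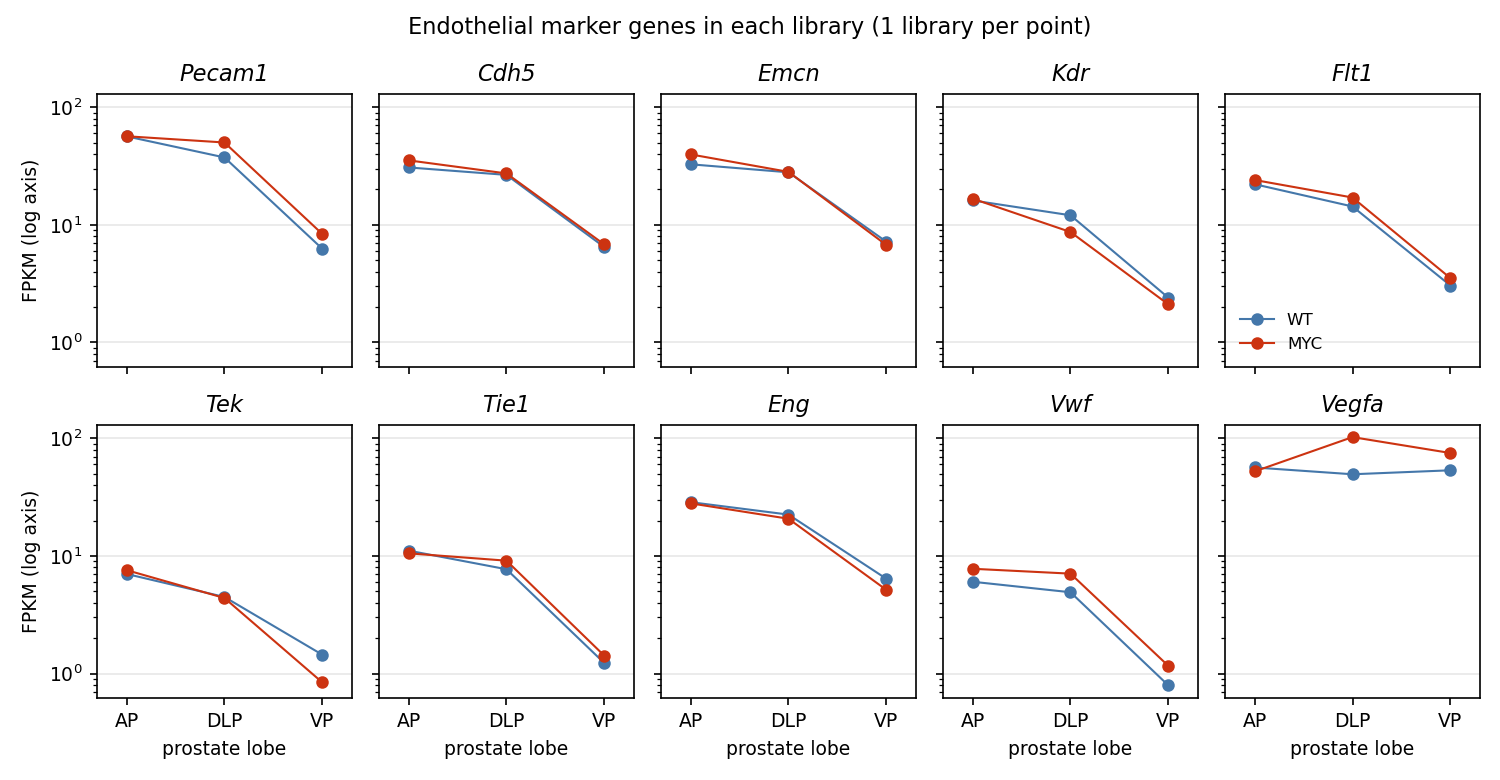
FPKM of each gene (log axis) in AP, DLP and VP of the WT mouse (blue) and the MYC mouse (red), 1 library per point and no error bar since there is 1 library each. All panels but that of Vegfa drop steeply at VP in both mice, and Vegfa stays between 49.5 and 103 FPKM.

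The first question the design allows is how the lobes of 1 mouse differ. On the scale of log2(FPKM + 1), with a gene counted from a 2-fold difference up, 9 of the 10 genes were lower in WT VP than in WT AP, against 10.3% of all genes compared, and the same 9 were lower in WT VP than in WT DLP, against 6.29%. In the MYC mouse these 9 were again lower in VP than in AP, against 16.1% of genes, and lower in VP than in DLP, against 14%. Between DLP and AP none of the 10 passed 2-fold in WT (1.31% of genes lower) or in MYC (3.49% lower), although each of the 9 was lower in DLP in both mice, as were 38.1% of all genes in WT and 43.0% in MYC. The median difference of the 9, VP against AP, was -2.09 in WT and -2.25 in MYC on the log2 scale, where the median of all genes was -0.01 and -0.02. Summed, the 9 came to 211, 158 and 35.2 FPKM in WT AP, DLP and VP and to 226, 173 and 36.1 FPKM in MYC, so that AP held 6.001-fold the VP sum in WT and 6.28-fold in MYC.

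PECAM1 and TIE1 had the largest ratios of AP to VP in WT, 9.05-fold for both, and ENG had the smallest at 4.49-fold. In MYC the largest was TEK at 9.02-fold and the smallest CDH5 at 5.19-fold. Counting error was small beside these ratios: for VWF, with the fewest estimated reads in WT VP (111), the exact 95% interval of log2 VP against AP was -3.25 to -2.63. These intervals cover the counting of reads only, and not the spread between animals.

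A fit across all genes with limma, on the 6 libraries with the mouse as a term, was added after these levels had been seen. It measures how alike a lobe difference was in the 2 mice, which differ in genotype. It used log2(FPKM + 1), which shrinks the differences of genes near 1 FPKM, such as TEK in VP (1.45 and 0.840 FPKM). It called 9 of the 10 genes lower in VP than in AP (9.97% of genes), with log2 differences from -1.97 (TEK, SE 0.20, adjusted p = 0.018) to -2.81 (PECAM1, SE 0.18, adjusted p = 0.0152), and 0 of 10 when no filter on low genes was used (9 genes called of 24908, 5501 at an unadjusted p under 0.05). VP against DLP gave 8 of 10 lower in limma (0.599% of genes), with TEK at adjusted p = 0.061. It gave 0 of 10 with libraries scaled by medians of ratios or to equal sums of FPKM (4 of 12361 genes lower in each). DLP against AP gave 0 of 10 in limma (0.0243% of genes lower, 1332 genes at an unadjusted p under 0.05), with KDR, FLT1 and TEK at unadjusted p = 0.0206, 0.017 and 0.0318. Without any 1 of the 6 libraries, 1 residual degree of freedom was left. The limma calls thus rest on all 6 libraries and could not be checked by leaving 1 out. VEGFA differed between no pair of lobes in the limma fit (VP against AP 0.22, SE 0.31, adjusted p = 0.634).

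Other genes of endothelium were low in VP too. Of 24 further endothelial genes, 23 were at least 2-fold lower in VP than in AP in WT and 24 in MYC, with medians of -2.05 and -2.01, and limma called 23 lower (all genes, 10.3% in WT, 16.1% in MYC and 9.97% in limma). Plvap, a protein of the diaphragms of fenestrated capillaries, had the highest mean over the 6 libraries, with 84.7, 53.2 and 10.2 FPKM in WT and 95.03, 82.5 and 15.8 FPKM in MYC. The exception was Tspan7, a tetraspanin, at 14.8, 19.96 and 14.4 FPKM in WT and 16.3, 15.8 and 6.47 FPKM in MYC. Of 10 endothelial transcription factors compared, 7 were at least 2-fold lower in WT VP than in WT AP and 6 in MYC, beside the same shares of all genes. Erg and Fli1, ETS factors of endothelium that are named for the motif above, stood at 4.02 and 4.44 FPKM in WT AP and at 0.958 and 1.002 FPKM in WT VP. Klf2 and Klf4, which respond to flow in endothelium and are used by epithelium too, did not pass 2-fold, with Klf4 at 117, 151 and 90.0 FPKM in WT. Of 14 arterial, venous and tip cell genes, 12 were at least 2-fold lower in WT VP than in WT AP and 10 in MYC (all genes, 10.3% and 16.1%).

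Other cell types moved with the same lobe difference. The luminal keratins Krt8 and Krt18 were higher in VP, Krt8 at 400, 446 and 1292 FPKM in WT and 388, 531 and 1101 FPKM in MYC. All 6 fibroblast genes were lower in VP than in AP in both mice (of all genes, 50.8% in WT and 51.1% in MYC), with medians of -0.99 in WT and -2.86 in MYC, and summed to 1201, 1284 and 648 FPKM in WT and to 1365, 698 and 195 FPKM in MYC. The 6 hematopoietic genes were all lower in VP than in AP in WT (5 at least 2-fold, against 10.3% of all genes, median -1.65), and in MYC 3 were lower and 3 higher (median -0.27). All 4 basal genes were lower in VP than in AP in both mice, 3 of them at least 2-fold in WT and 4 in MYC (all genes, 10.3% and 16.1%). Pericyte genes, from the mural cells of capillaries, summed to 37.9, 31.8 and 11.4 FPKM in WT and to 47.0, 32.1 and 11.4 FPKM in MYC. Smooth muscle genes did not share the pattern: all 6 were higher in VP than in AP in WT (of all genes, 48.8%; median 0.65) and all 6 were lower in MYC (median -0.95). The part of the luminal share of VP cells in the low endothelial levels was not tested.

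**Figure D2:**
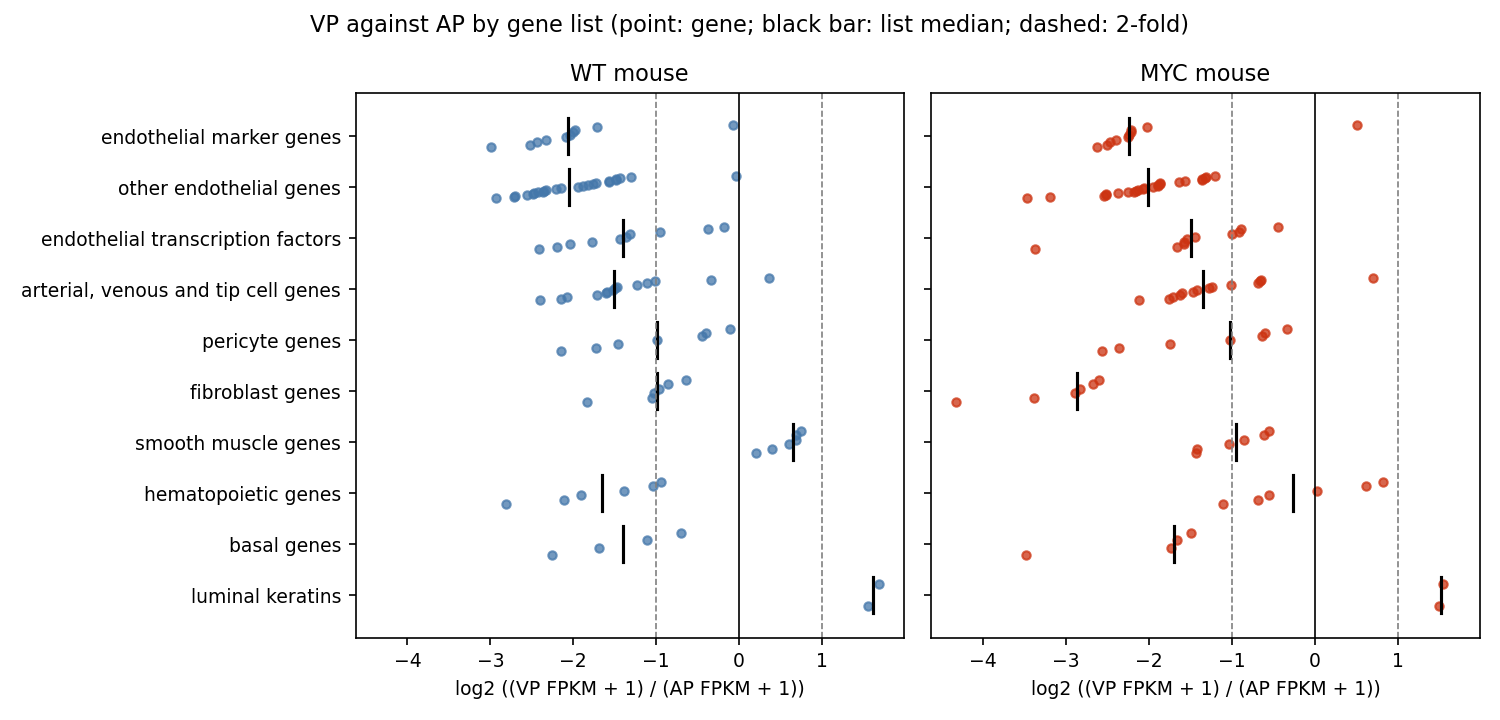
Difference of VP from AP, as log2 of (FPKM + 1) ratios, for each gene of 10 lists in the WT mouse (left) and the MYC mouse (right); black bars are list medians and dashed lines 2-fold. All of the 10 marker genes but Vegfa sit left of the 2-fold line in both mice, as do all of the 24 other endothelial genes but Tspan7 in WT, while 3 of 10 endothelial transcription factors in WT and 4 in MYC fall short of it; the luminal keratins sit right of it.

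The second question is what differed between MYC and WT in a lobe. With 1 library each there is no replicate check and no p-value. In AP 0 of the 10 genes were at least 2-fold higher (2.05% of genes) or lower (0.599%) in the library labelled MYC AP. In DLP 1 of 10, VEGFA, was higher (6.46% of genes) and 0 lower (3.39%). In VP 0 were higher (6.88%) and 0 lower (5.95%). The 10 genes had a median log2 difference of 0.07 (AP), 0.13 (DLP) and 0.09 (VP), where the median of all genes was 0.13, 0.03 and 0.04, and another scaling of the libraries turned each of the 3 medians below 0 in at least 1 case. Summed, the 9 came to 211 and 226 FPKM in WT and MYC AP, 158 and 173 in DLP, and 35.2 and 36.1 in VP.

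Within this narrow range the genes did not all go the same way, and the values that follow are log2 ratios of FPKM with exact 95% counting intervals. PECAM1 was level in AP (0.00, -0.06 to 0.06) and higher in MYC in DLP (0.42, 0.36 to 0.49) and VP (0.42, 0.27 to 0.56). VWF was higher in MYC in all 3 lobes, by 0.37 in AP (0.20 to 0.53), 0.53 in DLP (0.37 to 0.68) and 0.55 in VP (0.18 to 0.93). For FLT1 the values were 0.12 (AP), 0.25 (DLP) and 0.21 (VP). These differences are all under 1.5-fold in FPKM. On the scale with the pseudocount, the DLP and VP values of PECAM1 and VWF and the DLP value of FLT1 stayed above 0 under every alternative run. The AP value of VWF turned to -0.14 relative to stromal genes (the median of 19 fibroblast, smooth muscle and pericyte genes). Those genes moved themselves, their median, MYC against WT, being 0.46 (AP), -0.58 (DLP) and -0.46 (VP), so a value relative to them carries that shift. Among them all 6 smooth muscle genes were higher in the library labelled MYC AP (median 0.76) and all 6 were lower in MYC DLP (3 at least 2-fold, median -1.05) and in MYC VP (2 at least 2-fold, median -0.81), where 3.39% and 5.95% of all genes were at least 2-fold lower. FLT1 turned to -0.03 (medians of ratios) and -0.35 (relative to stromal genes) in AP, and to -0.02 (equal sums) and -0.05 (equal sums without the 20 highest genes) in VP. Leukocyte genes moved beside them: all 6 hematopoietic genes were at least 2-fold higher in MYC DLP (6.46% of all genes) and 5 of 6 in MYC VP (6.88%), with sums of 72.3 and 203 FPKM in WT and MYC DLP, 30.2 and 104 FPKM in VP, and 124 FPKM in both AP libraries. Their part in the PECAM1 values was not tested. The platelet genes summed to 8.57, 2.79 and 1.97 FPKM in WT and to 7.65, 6.44 and 2.29 FPKM in MYC.

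KDR went the other way in DLP, lower in MYC by a log2 ratio of -0.47 (-0.57 to -0.37), and in VP its interval reached past 0 (-0.19, -0.39 to 0.01). ENG was lower in DLP (-0.12, -0.22 to -0.01) and in VP (-0.31, -0.51 to -0.12). TEK was level in DLP (-0.03, -0.20 to 0.14) and lower in VP (-0.78, -1.12 to -0.45), on an estimated 232 reads in WT VP and 112 in MYC VP. CDH5 and EMCN were higher in the library labelled MYC AP (0.20, 0.14 to 0.26 and 0.28, 0.19 to 0.37), and their intervals covered 0 in DLP and VP. TIE1 was higher in MYC DLP (0.24, 0.13 to 0.36), with intervals that covered 0 in AP and VP. TIE1 in DLP stayed above 0 under every alternative run. KDR, ENG and TEK stayed below 0 in these lobes under the other scalings, but relative to stromal genes KDR came to 0.15 in DLP, ENG to 0.46 in DLP and 0.20 in VP, and TEK to 0.05 in VP. CDH5 and EMCN in AP came to -0.27 and -0.19 relative to stromal genes. The receptors of VEGF-A took opposite signs in DLP, FLT1 above and KDR below WT, in the values as deposited and under the other scalings, and the same sign relative to stromal genes.

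**Figure D3:**
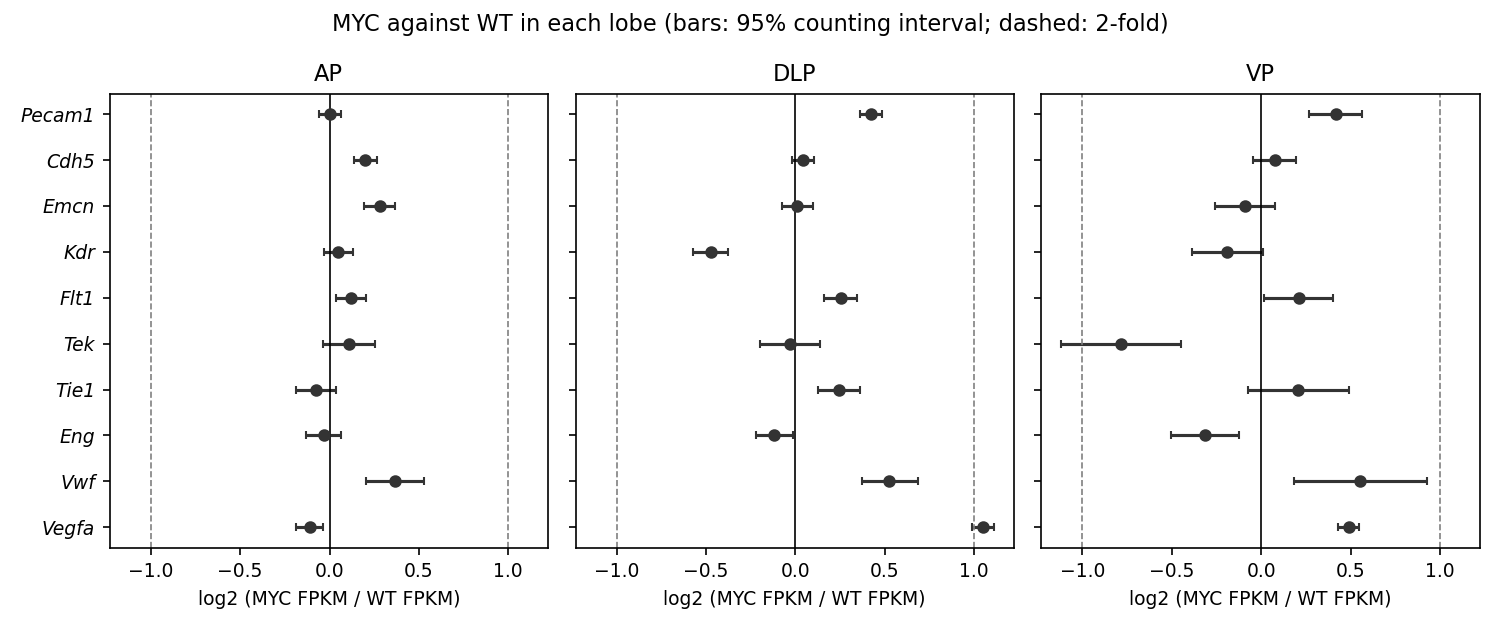
Log2 ratio of MYC to WT FPKM for each gene in AP, DLP and VP; bars are exact 95% counting intervals, which leave out the spread between animals, and dashed lines mark 2-fold. The point of Vegfa in DLP, at 1.05, is the 1 point past a dashed line, and that of Tek in VP lies farthest to the left, at -0.78.

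VEGFA was 2.07-fold higher in MYC than in WT in DLP, a log2 ratio of 1.05 whose counting interval, 0.99 to 1.11, holds the 2-fold line. It was 1.40-fold higher in VP (0.49, 0.43 to 0.55) and slightly lower in the library labelled MYC AP (-0.11, -0.19 to -0.04). With the pseudocount the DLP difference was 1.04, and it came to 0.97, 0.98 and 0.87 under 3 other scalings of the libraries, all short of 2-fold. Set against the endothelial cells' own gene CDH5, VEGFA came to 1.84, 1.87 and 8.29 FPKM per FPKM of CDH5 in WT AP, DLP and VP and to 1.48, 3.75 and 11.1 in MYC. The ligand was thus at its highest relative to endothelial genes in VP of both mice, where CDH5 was low and VEGFA was not.

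**Figure D4:**
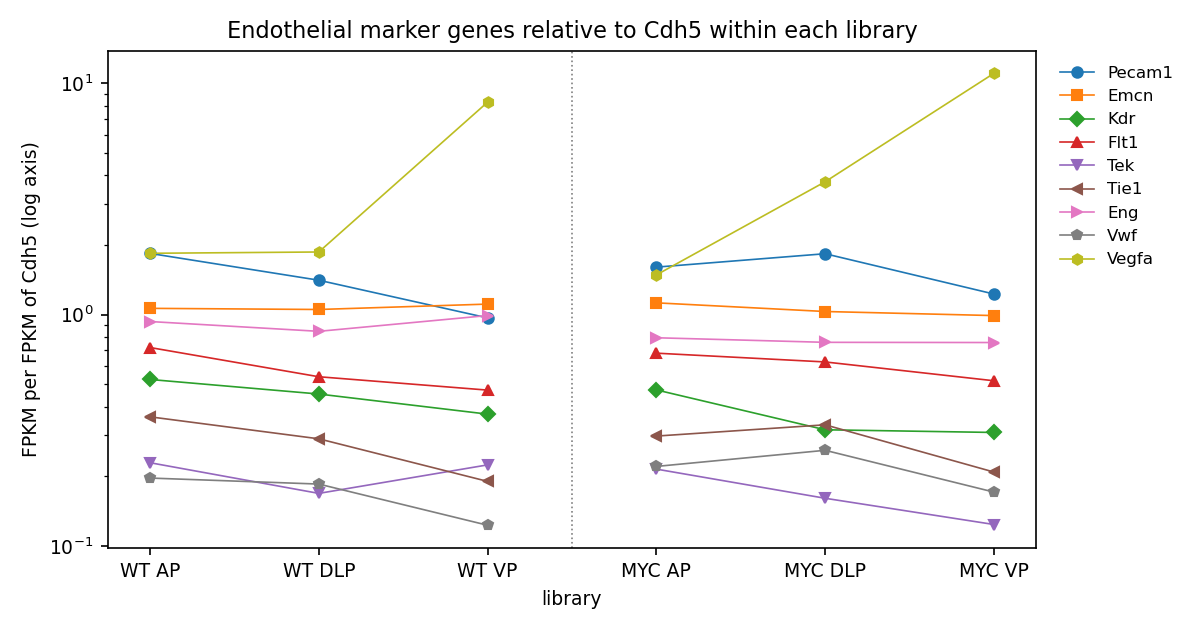
FPKM of each gene divided by the FPKM of Cdh5 in the same library (log axis), WT lobes left of the dotted line and MYC lobes right of it, 1 library per point. Vegfa climbs from 1.84 in WT AP to 8.29 in WT VP and from 1.48 to 11.1 in MYC, whereas Emcn stays between 0.990 and 1.12.

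Relative to CDH5 the other genes were not constant. Between AP and VP, PECAM1 per CDH5 went from 1.84 to 0.967 in WT and from 1.60 to 1.23 in MYC, and TIE1 per CDH5 from 0.361 to 0.190 and from 0.298 to 0.208. KDR per CDH5 went from 0.524 to 0.371 and from 0.472 to 0.309. ENG per CDH5 stayed between 0.757 and 0.990 in all 6 libraries. PECAM1, TIE1 and KDR were thus lower in VP by more than CDH5, ENG and EMCN were.

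Other genes of the VEGF and angiopoietin pathway were compared for 11 of 13 that passed 1 FPKM. In DLP 1 was at least 2-fold higher in MYC and 0 lower (all genes, 6.46% and 3.39%), and in VP 1 was higher and 1 lower (6.88% and 5.95%). Below 0 were 8 of the 11 in DLP (median -0.18; of all genes, 46.2%) and 9 in VP (median -0.37; of all genes, 46.4%), where the median of all genes was 0.03 and 0.04. The higher one in both lobes was Pdgfb, which recruits pericytes and is made by endothelium, platelets and macrophages, at 5.83 against 28.1 FPKM in DLP and 3.98 against 12.4 FPKM in VP. The lower one in VP was Adm, the vasodilator peptide adrenomedullin, at 22.2 against 8.87 FPKM. Vegfb differed little, with 14.3, 11.9 and 9.43 FPKM in WT and 12.4, 9.72 and 9.93 FPKM in MYC. The co-receptor Nrp1 followed the lobes as the 9 genes did, with 13.2, 8.07 and 3.13 FPKM in WT and 19.1, 7.01 and 1.92 FPKM in MYC; it was named after its values were seen.

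Among 8 angiogenesis inhibitors compared, 1 was at least 2-fold higher in MYC DLP and 0 lower, and 1 was higher and 1 lower in MYC VP (all genes, 6.46% and 3.39% in DLP, 6.88% and 5.95% in VP). Below 0 were 5 of the 8 in DLP (median -0.24; of all genes, 46.2%) and 6 in VP (median -0.78; of all genes, 46.4%). Cxcl10, an interferon-induced chemokine, was at least 2-fold higher in MYC in all 3 lobes: 41.7, 37.0 and 49.6 FPKM in WT against 135, 212 and 533 FPKM. Thbs1, the most abundant of them by its mean over the libraries, stood at 664, 769 and 664 FPKM in WT and at 386, 619 and 343 FPKM in MYC. Serpinf1, which encodes PEDF, was at least 2-fold lower in MYC VP (23.4 against 9.31 FPKM). Of 15 hypoxia response genes, the programme that drives VEGFA in low oxygen, 3 were at least 2-fold higher in MYC DLP and 0 lower, with a median of 0.07, and in VP 2 were higher and 2 lower, with a median of -0.35, beside the same shares of all genes. Egln3, a HIF prolyl hydroxylase, was at 5.46 against 34.0 FPKM in DLP and at 6.06 against 4.77 FPKM in VP, and was named after its values were seen. Slc2a1 and Ldha, the most abundant of the list by their means, had log2 differences of -0.87 and -0.45 in AP. They had 0.02 and 0.02 in DLP, and -1.07 and -0.35 in VP. Above 0 in MYC were 5 of the 15 in AP (of all genes, 66.4%), 11 in DLP (53.5%) and 5 in VP (53.2%). Ddit4, named after its values were seen, was at 57.8 against 124 FPKM in DLP and at 89.3 against 190 FPKM in VP.

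Genes of vessel subtypes and mural cells were compared between MYC and WT as well. Of 14 arterial, venous and tip cell genes, 1 was at least 2-fold higher in MYC DLP (6.46% of all genes) and 1 in MYC VP (6.88%), Cxcr4 in both, at 15.0 against 45.7 FPKM in DLP and 6.86 against 24.6 FPKM in VP; leukocytes carry this chemokine receptor too. Nr2f2, which sets venous identity and is also used by stroma, was lower in MYC VP, at 14.2 against 5.62 FPKM. Selp, P-selectin of venules and platelets, was highest in DLP in both mice, at 40.9, 85.9 and 16.9 FPKM in WT and 31.0, 48.1 and 19.4 FPKM in MYC. Of the 24 other endothelial genes, 16 were above 0 in MYC DLP (of all genes, 53.5%; median 0.37, 1 at least 2-fold higher and 0 lower) and 15 in MYC VP (of all genes, 53.2%; median 0.11, 1 higher and 2 lower). Cd34, carried by capillary endothelium and by stromal fibroblasts, was 1 of those 2, at 20.1 against 5.001 FPKM in VP. Of the 10 endothelial transcription factors, 6 were above 0 in MYC VP (of all genes, 53.2%; median 0.02), and 1 was at least 2-fold lower, Gata2, of endothelium and other cells, at 11.6 against 2.29 FPKM. Of all genes, 6.46% were at least 2-fold higher and 3.39% lower in DLP, and 6.88% and 5.95% in VP. Of the 6 lymphatic genes 2 passed 1 FPKM, Pdpn and Lyve1. Neither was higher in MYC in any lobe (of all genes, 66.4% in AP, 53.5% in DLP and 53.2% in VP). In VP Pdpn was at 40.1 against 12.0 FPKM and Lyve1 at 1.28 against 0.243 FPKM. Whether the Pdpn values came from lymphatic endothelium was not tested. None of 7 pericyte genes passed 2-fold in any lobe (all genes higher and lower, 2.05% and 0.599% in AP, 6.46% and 3.39% in DLP, 6.88% and 5.95% in VP), Rgs5 having 5.16 against 7.43 FPKM in DLP and Pdgfrb 6.67 against 4.00 FPKM.

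Pdgfra, which the study used to mark vascular endothelium among single cells and which is best known from fibroblasts, was followed separately. Its levels were 23.5, 26.6 and 14.8 FPKM in WT AP, DLP and VP and 28.1, 7.76 and 3.80 FPKM in MYC. It was 3.42-fold and 3.89-fold lower in MYC in DLP and VP, where the 9 genes ranged from 1.39-fold lower to 1.44-fold higher and from 1.72-fold lower to 1.47-fold higher. The 6 fibroblast genes, Pdgfra among them, went both ways in DLP, where 2 were at least 2-fold higher in MYC and 2 lower (median 0.36; all genes, 6.46% and 3.39%), and in VP 3 were lower and 0 higher (median -1.09; all genes, 5.95% and 6.88%). In DLP Col3a1, named after its values were seen, had 22.3 against 94.0 FPKM and Dcn 1155 against 454 FPKM.

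Likeness of pattern was measured as the mean absolute difference between centred log2(FPKM + 1) profiles over the 6 libraries. Against the median profile of the 9 genes, CDH5 (0.04), EMCN (0.05), TIE1 (0.07) and ENG (0.09) were nearest and PECAM1 farthest at 0.24. The 9 genes set this profile themselves, so their nearness to it is partly built in. The median of all genes was 0.92. VEGFA lay at 0.99 and Pdgfra at 0.60. The 8 nearest other genes were Shank3, Slc26a3, Mmrn2, Podxl, Abcg2, Dll4, Elk3 and Adgrf5, at 0.06 to 0.13. Slc26a3 had 3.41, 2.42 and 0.067 FPKM in WT and 4.18, 3.09 and 0.054 FPKM in MYC. Adding 1 FPKM shrinks such ratios near 0, so its FPKM drop in VP was far steeper than that of the 9. Shank3 stood at 7.26, 4.77 and 0.822 FPKM in WT and 7.30, 5.63 and 0.829 FPKM in MYC. Nearest to VEGFA were H2-T9, Limd2, Nt5dc2, Haus5 and Gmfg, at 0.06 to 0.11. This is a description over 6 libraries of 2 mice and says nothing of shared control.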

How the data were processed

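Per the labels and the study's methods, single-end stranded poly(A) reads were mapped with STAR and the authors deposited FPKM per gene from Cufflinks, on build mm10 per the submitters' processing notes, with no raw counts. FPKM values of the 6 libraries were used as deposited, with no further scaling, on the scale log2(FPKM + 1), for the 12361 genes that averaged 1 FPKM or more. A gene was counted as different from 2-fold up. Depth (25.5 to 50.2 M reads) was estimated from the spacing of low FPKM values of single-exon genes. Reads of each gene were estimated from it, and exact 95% (Clopper-Pearson) intervals of a ratio cover counting error only.

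Lobes were also compared in limma 3.58.1 (R 4.3.3, Benjamini-Hochberg adjustment over all genes), with terms for lobe and mouse, a test added after the levels had been seen. The planned design had no test, since each group is 1 library. The calls of both methods were tested on simulated data. Promoter stretches and gene coordinates were RefSeq's for GRCm38.p6, the same assembly as mm10. The genes and gene lists were chosen with earlier results of these data known. All 10 genes were described, and other lists gave the names of their 2 most abundant genes and the 2 with the largest MYC to WT difference in VP, not all of them described. The library scalings, pseudocount, filter and threshold were varied.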

Additional observations from a re-analysis of the deposited data

Results flagged for a closer look

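VEGFA was picked out because its MYC to WT difference took opposite directions in the lobes, with counting intervals on either side of 0. On the log2 FPKM scale AP had -0.11, DLP 1.05 and VP 0.49, so DLP exceeded AP by 1.16 and VP exceeded AP by 0.60. The difference between lobes was not tested, since each lobe of each genotype is 1 library. The AP value rests on the library labelled MYC AP, which held seminal vesicle transcripts and no excess of Myc. The part of either in the AP value was not tested.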

How the results depend on the processing

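The low level of the 9 genes in VP, counted from 2-fold up within each mouse, kept 9 of 10 under the 3 other scalings, a pseudocount of 0.1, no filter and a 1.5-fold threshold. With a mean of at least 10 FPKM only 6 of the 10 were compared, and 5 were lower in VP against AP and against DLP in each mouse. A 1.5-fold threshold counted 1 of 10 between DLP and AP in WT (17.2% of all genes, either way) and 3 in MYC (21.6%). Equal sums of FPKM counted 1 in MYC with the 20 highest genes (7.94% of all genes) and 1 without them (7.81%). For MYC against WT in DLP the count of 1 (VEGFA) became 0 under each of the 3 scalings.

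The median of the 10 genes, MYC against WT, became -0.068 in AP with size factors from medians of ratios, and -0.027 in DLP and -0.11 in VP with equal sums without the 20 highest genes. Under these scalings the median over all genes went from 0.13 to -0.0015 (AP), 0.03 to -0.11 (DLP) and 0.04 to -0.18 (VP). Each of 150 values of single genes under alternatives was compared with its main value, both with the pseudocount. The yardstick was the counting interval of the ratio without the pseudocount. In 91 the shift was no larger than the mean reach of that interval to either side, and in 59 it was larger. The sign turned in 34, of which 14 of 30 were set relative to stromal genes, 7 used medians of ratios, 6 equal sums, 7 equal sums without the 20 highest genes and 0 a pseudocount of 0.1. VEGFA in the 3 lobes kept its sign under these alternatives.

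The limma count for VP against AP stayed at 9 under each scaling, a pseudocount of 0.1 and no variance trend. Of 12361 genes, 1071 to 1624 were lower in these fits. The count was 5 of 6 at a mean of at least 10 FPKM (492 of 5360 genes) and 0 with no filter (8 of 24908). For VP against DLP the count was 8 (74 of 12361 genes lower). It became 0 with medians of ratios (4 genes), 0 with equal sums (4 genes) and 5 without the 20 highest genes (29 genes). It was 0 with no filter (0 of 24908 genes) and 5 of 6 at a mean of at least 10 FPKM (26 of 5360 genes). Without each library in turn, 1 residual degree of freedom was left, so neither limma count could be checked this way. The cause of the changed counts was not tested. The limma fit compares lobes within each mouse, and MYC against WT has no pairs. Depth limits TEK and VWF most, with 112 estimated reads for TEK in MYC VP and 111 for VWF in WT VP.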
